A study of Mus musculus with 44 samples.

Results

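Solute carriers are membrane proteins that move nutrients, ions, metabolites and drugs across the plasma membrane and the membranes of organelles. They work as exchangers, as cotransporters driven by an ion gradient, or as facilitators. In the ovary, granulosa cells take up amino acids and sugars and pass nutrients to the oocyte, which depends on them for several substrates. GDF9 is a growth factor of the TGFβ superfamily that the oocyte secretes, and it signals in granulosa cells through SMAD2, SMAD3 and their partner SMAD4.

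The genes described here are those whose symbol starts with Slc or Slco and a number and whose mean over the 4 RNA-seq libraries was 20 normalized counts or more. Of 395 such symbols with values, 210 passed this limit, 119 had reads but a lower mean, and 66 had no read in any library. The 210 members belong to 47 families on 20 chromosomes, and all 210 were among the 12596 genes tested. They were grouped by family into carriers of amino acids (31), sugars (13), inorganic ions (53) and organic anions (19), mitochondrial carriers (38), nucleotide sugar carriers (22) and carriers of other substrates (29). A further 5 symbols match the pattern but name no carrier: *Slc2a4rg-ps*, *Slc4a1ap*, *Slc7a6os*, *Slc9a3r1* and *Slc9a3r2*. Just inside the limit lay *Slc10a5* at a mean of 20.7 and *Slc2a9* at 21.1, and just outside it *Slc25a18* at 19.3 and *Slc5a7* at 17.0.

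The RNA came from primary granulosa cells of Smad3PA/PA mice, which carry a PA epitope tag on both copies of *Smad3*, so GDF9 and vehicle cells share this allele. Females of 3 to 4 weeks received 5 IU of PMSG, and the cells, collected 46 h later, were cultured for 4 days before 4 h with 100 ng/mL mouse GDF9 (n = 2) or vehicle (n = 2). In addition, CUT&RUN, which releases the DNA bound by an antibody's target, was done with 2 replicates per treatment on Smad3PA/PA cells (antibodies to SMAD2, the PA tag, SMAD4 and H3K27ac) and on Smad2HA/+ cells (H3K27ac, SMAD2, SMAD3 and the HA tag). The CUT&RUN replicates are described as pooled and biological, from cells of 8 mice. For the RNA libraries, it is not stated whether the replicates are separate animals or cultures, so p-values capture the spread between samples that may be technical.

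Between 8827825 and 11416005 reads per library fell in genes. The granulosa markers *Foxl2* (745 to 834 normalized counts), *Amhr2* (526 to 555) and *Inha* (13383 to 14887) were present in every library. *Amh* lay between 0.886 and 2.90 and *Cyp19a1* between 1.77 and 2.30. Of the 7 theca markers, *Cyp17a1*, *Insl3*, *Hhip* and *Gli1* lay at a mean of at most 3.38, while *Acta2* (mean 9298), *Col1a1* (1326) and *Ptch1* (198), which other cells also express, were present, and the sum of the list was 11070 and 11016 with GDF9 against 10389 and 10832 with vehicle. Among the 8 oocyte markers *Gdf9* (19.6) and *Ddx4* (15.7) had the highest means, *Oosp1* and *Figla* had no read, and the sum was 33.2 and 46.4 against 36.8 and 44.3. The leukocyte marker *Ptprc* lay between 0 and 2.66 over the libraries, and the means of *Cd68* and *Csf1r* were 38.4 and 32.7. Of 11 tested granulosa markers *Fst*, *Hsd17b1* and *Esr2* were called higher and *Nr5a2* lower, beside 2.44% and 0.707% of all tested genes. Of 8 tested theca, endothelial, leukocyte and oocyte markers 0 were called by limma, beside 3.14% of all tested genes. In these 8, edgeR and DESeq2 also called 0, and 2 had an unadjusted p under 0.05. At such shares 8 genes are too few to show whether other cell types shifted. The summed levels of the 6 macrophage and leukocyte markers were 87.6 and 93.9 with GDF9 against 66.6 and 76.2 with vehicle. Genes of the mitochondrial genome made up 3.38% and 3.07% of the counts with GDF9 and 2.37% and 2.35% with vehicle. *Malat1* made up 0.282% and 0.264% against 0.108% and 0.110%. In a list of nuclear noncoding and mitochondrially encoded RNAs, 10 of 11 tested were called higher with GDF9, beside 2.44% of all tested genes. Log2 fold changes were 2.32 for *Kcnq1ot1*, 1.33 for *Malat1*, 1.14 for *Meg3*, 0.63 for *Neat1* and 0.48 for the mitochondrial *COX1*. The part of these shifts, and of the theca, macrophage and leukocyte markers, in the changes below was not tested. In RNA of whole cultures, fewer cells of a type and less RNA per cell cannot be told apart.

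GDF9 raised 11 of the 210 solute carrier symbols and lowered 0. The 11 were *Slco1a1* and *Slco3a1*, carriers of organic anions, the monocarboxylate carrier relatives *Slc16a11* and *Slc16a13*, the ion carriers *Slc4a3*, *Slc9a5*, *Slc9a8* and *Slc20a1*, the amino acid carriers *Slc7a8* and *Slc38a9*, and *Slc22a17*. Calls required an adjusted p below 0.05 together with a log2 fold change larger than 0.18 in size, by limma on log2(normalized count + 1), a scale that understates the changes of low genes. The 11 are 5.24% of the members, beside 2.44% called higher and 0.707% called lower (3.14% in all) of the 12596 tested genes. At an unadjusted p under 0.05, 30 members were higher and 9 lower. The share of all tested genes under that limit was not counted, so this and the other unadjusted counts in the text have no background. On the recovered reads, 0 members were called lower by edgeR, which called 0.651% of all tested genes lower. DESeq2 also called 0 members lower, beside 0.159% of all tested genes. The median log2 fold change was 0.01 over the members and -0.01 over all tested genes. Both GDF9 libraries exceeded both vehicle libraries for 61 members and fell below both for 38, and over all tested genes these shares were 22.0% and 23.2%. Thus most members were not called, and 163 of the 199 uncalled members had a 95% interval within 0.5 of 0 on the log2 scale. For the other 36 uncalled members the interval reached further, so their change is bounded less closely at this depth.

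**Figure D1:**
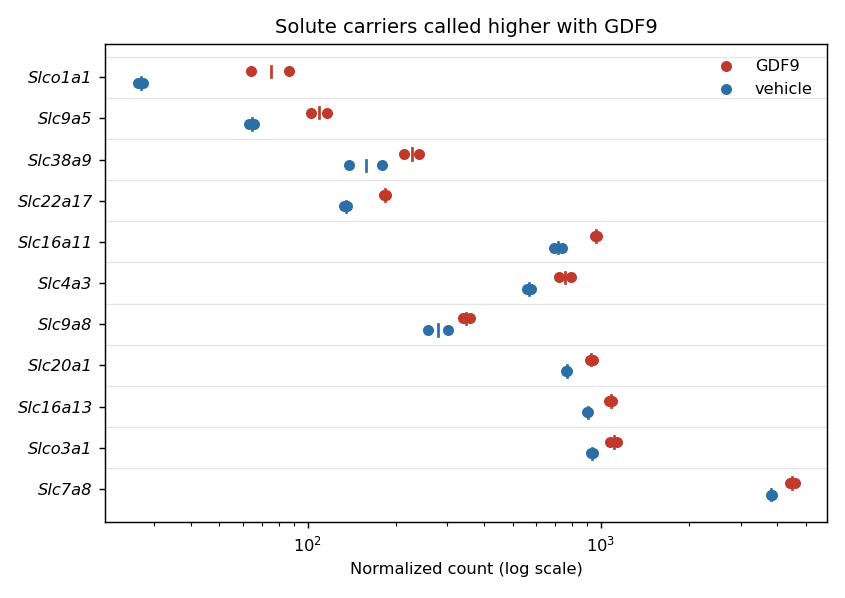
Normalized counts (x axis, log scale) of the 11 members called higher, with 1 point per library and a short bar at the mean of each group (red, GDF9; blue, vehicle; n = 2 each). The members are ordered by log2 fold change from *Slco1a1* (1.43) at the top to *Slc7a8* (0.24) at the bottom. In none of the 11 did the groups overlap, but they were called on these same values. Over all tested genes both GDF9 libraries lay above both vehicle libraries for 22.0%.

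Among carriers of organic anions, 4 of 19 members were called higher, beside 2.44% of all tested genes, and 15 were not called. The median log2 fold change of the group was 0.07. *Slco1a1* encodes an uptake carrier for bile acids, steroid conjugates and other organic anions. It had 86.6 and 63.9 normalized counts with GDF9 and 26.4 and 27.5 with vehicle. The log2 fold change was 1.43 (SE 0.22, adjusted p = 7.28e-05, limma), the largest among the 210 members. Both GDF9 libraries stood above both vehicle libraries, as for 22.0% of all tested genes. The GDF9 libraries differed more from each other (SD 16.1) than the vehicle libraries (SD 0.744). *Slco3a1*, which encodes a widely expressed carrier of the same family, had 1140 and 1072 against 941 and 927, a log2 fold change of 0.24 (SE 0.06, adjusted p = 0.0076, limma). The third Slco member, the prostaglandin carrier gene *Slco2a1*, had 1200 and 1038 against 1092 and 1111, and its groups overlapped.

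*Slc16a11* and *Slc16a13* encode members of the monocarboxylate carrier family and lie tail to tail on chromosome 11 (GRCm38), 374 bases apart. *Slc16a11* (chr11:70213695-70216414, plus strand) had 973 and 956 normalized counts with GDF9 and 740 and 692 with vehicle, a log2 fold change of 0.43 (SE 0.06, adjusted p = 1.26e-05, limma). *Slc16a13* (chr11:70216789-70222740, minus strand) had 1097 and 1071 against 900 and 903, a log2 fold change of 0.27 (SE 0.05, adjusted p = 0.0028, limma). The lowest GDF9 library exceeded the highest vehicle library in both genes, as for 22.0% of all tested genes. The 6 other Slc16 members were not called, among them the lactate and pyruvate carrier genes *Slc16a1* (480 and 484 against 540 and 462) and *Slc16a3* (101 and 115 against 114 and 85.1), whose groups overlapped. In *Slc10a5*, nearest the limit on the mean, the counts were 29.2 and 22.3 against 12.6 and 18.6, with an interval of the log2 fold change from 0.03 to 1.36 and an adjusted p of 0.29 by limma.

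Of the 53 carriers of inorganic ions, 4 were called higher, beside 2.44% of all tested genes, and the median log2 fold change was -0.02. *Slc4a3* encodes a chloride and bicarbonate exchanger that affects the pH of the cell. It had 795 and 721 normalized counts with GDF9 and 558 and 580 with vehicle (log2 fold change 0.41, SE 0.07, adjusted p = 0.000117, limma). *Slc9a5* and *Slc9a8* encode sodium/proton exchangers, the latter found on the Golgi apparatus and endosomes as well as the surface. *Slc9a5* had 117 and 103 against 63.2 and 65.6 (0.76, SE 0.16, adjusted p = 0.0041, limma), the second largest change among the called members. Its span overlaps that of *Plekhg4* on the same strand, so reads in the overlap may not be assigned to 1 gene with certainty. *Slc9a8* had 359 and 338 against 257 and 301, a log2 fold change of 0.32 (SE 0.09, adjusted p = 0.0453, limma) and the call nearest the limit. *Slc20a1*, which encodes a sodium-dependent phosphate carrier, had 939 and 921 against 760 and 769 (0.28, SE 0.06, adjusted p = 0.0027, limma), with an SD of 12.3 in the GDF9 and 6.22 in the vehicle libraries.

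The relatives of these ion carriers were not called. *Slc9a7*, the sodium/proton exchanger gene with the second highest mean among ion carriers, had 4513 and 4603 normalized counts against 4522 and 4331. *Slc12a7*, which encodes a potassium and chloride cotransporter, passed the limit on p but not on size: 6634 and 6394 against 7176 and 7202, a log2 fold change of -0.14 (SE 0.04, adjusted p = 0.0164, limma). It was the only member below vehicle to pass the limit on p. *Slc12a2*, the gene of a sodium, potassium and chloride cotransporter, had 688 and 654 against 724 and 713, and *Slc39a14*, the gene of a zinc and iron carrier, 538 and 532 against 531 and 510. Neither was called. *Slc24a5* had the largest uncalled change among ion carriers with a mean of at least 50 (107 and 123 against 101 and 90.4, log2 fold change 0.26, adjusted p = 0.42, limma).

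Among the 31 amino acid carriers, 2 were called higher, beside 2.44% of all tested genes, and the median log2 fold change was 0.04. Both GDF9 libraries exceeded both vehicle libraries for 12 members and fell below both for 3, beside 22.0% and 23.2% of all tested genes. *Slc7a8* encodes a light subunit that exchanges neutral amino acids when paired with the heavy chain made from *Slc3a2*. It had 4589 and 4420 normalized counts with GDF9 and 3829 and 3798 with vehicle (log2 fold change 0.24, SE 0.04, adjusted p = 0.000111, limma). The heavy chain gene *Slc3a2* had 3161 and 3126 against 2806 and 2866, which passed the limit on p but not on size (0.15, SE 0.04, adjusted p = 0.0343, limma). The partner light chain genes *Slc7a5* (833 and 799 against 776 and 789) and *Slc7a11* (84.6 and 93.9 against 93 and 105) were not called. *Slc38a9*, which encodes an amino acid carrier of the lysosome that takes part in nutrient sensing by mTORC1, had 213 and 239 against 179 and 138 (0.52, SE 0.12, adjusted p = 0.0096, limma). The vehicle libraries of *Slc38a9* differed from each other (SD 28.9) more than the GDF9 libraries (SD 18). *Slc38a9* and *Slco1a1* each overlap 1 RefSeq gene on the opposite strand that has no row in the table, and the strand setting of the counting is not given in the sources used here.

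*Slc6a6*, the gene of the taurine carrier, had 39973 and 38210 normalized counts with GDF9 and 35300 and 35032 with vehicle. This 0.15 rise on the log2 scale (SE 0.03) passed the limit on p (adjusted p = 0.0017, limma) and fell short of the limit on size. Because of its level, *Slc6a6* alone held 22.1% of the summed counts of the 210 members. The remaining amino acid carriers with a known ovarian role showed no call. *Slc38a2* had 3401 and 3182 against 3434 and 3303, *Slc1a5* 148 and 150 against 149 and 142, and the glycine carrier gene *Slc6a9* 169 and 178 against 175 and 152. *Slc38a3*, which encodes the alanine and glutamine carrier known from cumulus cells, had a mean of 5.65 and is not a member. *Slc38a6* had the largest uncalled change of the group (68.5 and 66.8 against 56.3 and 41.6, log2 fold change 0.47, adjusted p = 0.23, limma).

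*Slc22a17*, which encodes a receptor for lipocalin and was grouped under other substrates with its Slc22 relatives, had 185 and 182 normalized counts with GDF9 and 137 and 133 with vehicle. Its log2 fold change was 0.44 (SE 0.12, adjusted p = 0.0293, limma), and it was the only called member of 29, beside 2.44% of all tested genes called higher. The members of this group with the highest means were not called, with 3167 and 3190 against 3116 and 3057 for the vitamin C carrier gene *Slc23a2* and 2421 and 2401 against 2397 and 2302 for the choline carrier gene *Slc44a2*. *Slc27a1*, the gene of a fatty acid carrier, had 306 and 306 against 286 and 263, and was not called. *Slc18a2*, the gene of a vesicular monoamine carrier, had 68.5 and 63.9 against 58.6 and 31.9 and was not called (log2 fold change 0.60, adjusted p = 0.16, limma). Without vehicle replicate 1 it was called, with a log2 fold change of 1.03, and over 14 alternatives its adjusted p ran from 0.0133 to 1.00.

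In the sugar, mitochondrial and nucleotide sugar groups 0 of 13, 0 of 38 and 0 of 22 members were called in limma, beside 3.14% of all tested genes. In these groups 1, 5 and 3 members had an unadjusted p under 0.05. Of these groups edgeR called 1 member, in the nucleotide sugar group, and DESeq2 0. The median log2 fold changes were 0.03, -0.01 and 0.03. Among sugar carriers, *Slc2a8* had 193 and 199 normalized counts with GDF9 against 165 and 157 with vehicle (log2 fold change 0.28, adjusted p = 0.19, limma) and *Slc2a3* 118 and 122 against 96.5 and 109. Both genes encode facilitative glucose carriers, and neither was called. In both the GDF9 libraries lay above the vehicle libraries, as for 5 of the 13 sugar carriers, while 4 lay below. Over all tested genes these shares were 22.0% and 23.2%. *Slc45a4* (1057 and 1057 against 1076 and 1142) and *Slc37a3* (627 and 700 against 658 and 695) had the highest means of the group and log2 fold changes of -0.07 and -0.03. *Slc2a9* had 24.2 and 19.4 against 23.0 and 17.7, and its interval ran from -0.54 to 0.74.

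Mitochondrial carriers of the inner membrane link the respiratory chain to the cytosol. *Slc25a3*, which encodes the phosphate carrier, had 4585 and 4756 normalized counts with GDF9 against 4543 and 4764 with vehicle. The ADP/ATP carrier genes *Slc25a4* (2830 and 3038 against 3015 and 3033) and *Slc25a5* (2797 and 2872 against 2981 and 3091) had log2 fold changes of -0.04 and -0.10. *Slc25a42*, the gene of a coenzyme A carrier, had the largest uncalled change of the group, with 113 and 111 against 68.9 and 90.4 (0.50, SE 0.16, adjusted p = 0.082, limma). Its call changed with the processing: it was called without vehicle replicate 2 (log2 fold change 0.69, adjusted p = 0.0291) and with the replicate number as a block (adjusted p = 0.039), while over 14 alternatives the adjusted p ran from 0.0291 to 0.97. In the nucleotide sugar group *Slc35a4* (775 and 867 against 787 and 798) and *Slc35b4* (775 and 668 against 792 and 752) overlapped between the groups. *Slc35e4*, whose substrate is not settled, had 324 and 337 against 277 and 260 (0.30, adjusted p = 0.0549, limma), and edgeR on the recovered reads called it (adjusted p = 0.0463, with a range from 0.0251 to 0.77 over 14 alternatives).

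Of the 5 symbols that name no carrier, 0 were called in limma, beside 3.14% of all tested genes. Their log2 fold changes ran from -0.08 to 0.65. *Slc9a3r1*, the gene of a scaffold protein, had 698 and 758 normalized counts against 779 and 763, and *Slc4a1ap* 401 and 437 against 431 and 452. *Slc7a6os* had 335 and 355 against 288 and 284 (log2 fold change 0.27, adjusted p = 0.084, limma), and was called with the replicate number as a block (adjusted p = 0.0485, with 0.92 the highest over 14 alternatives).

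**Figure D2:**
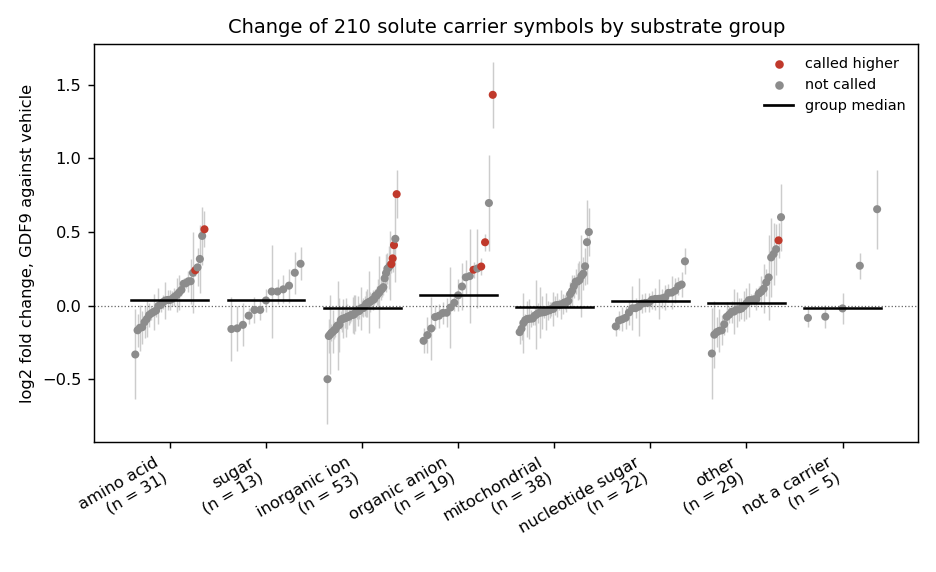
Log2 fold change, GDF9 against vehicle, of the 210 members by substrate group, each point with its SE (n = 2 libraries per treatment), red where called higher, and a black line at the median of the group. The medians lie between -0.02 and 0.07, and the 11 called members belong to the amino acid, inorganic ion, organic anion and other groups.

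The calls differed in how firmly they held. *Slc16a11*, *Slc4a3*, *Slc7a8* and *Slco1a1* were called under each of the 14 or 15 alternatives that gave an adjusted p, including those that left out 1 library. *Slc16a13* and *Slc20a1* were also called without any 1 library, and *Slc16a13* lost its call in 1 alternative and *Slc20a1* in 2, all of them DESeq2 on the recovered reads. *Slc22a17* lost its call without each of the 4 libraries in turn, at adjusted p-values from 0.0612 (without GDF9 replicate 2) to 0.13 (without vehicle replicate 2) in limma. *Slco3a1* lost it without GDF9 replicate 1 (adjusted p = 0.0655, limma), vehicle replicate 1 (0.0608) and vehicle replicate 2 (0.0898). *Slc9a8* lost it without GDF9 replicate 1 (0.19) and vehicle replicate 1 (0.53), *Slc9a5* without GDF9 replicate 1 (0.0655) and *Slc38a9* without vehicle replicate 2 (0.22). edgeR called 11 members higher, beside 2.56% of all tested genes. DESeq2 called 4 members higher, beside 0.897% of all tested genes: *Slc16a11*, *Slc16a13*, *Slc4a3* and *Slc7a8*. It gave no adjusted p for 124 members, among them 5 of the 11. Over all alternatives the adjusted p ran from 0.0126 to 0.62 for *Slc22a17*, from 0.000498 to 0.19 for *Slco3a1*, from 0.0113 to 0.74 for *Slc9a8*, from 0.000548 to 0.21 for *Slc9a5* and from 0.000427 to 0.27 for *Slc38a9*.

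The 11 called members came from 8 of the 47 families, which are listed because they hold a call. Over all tested genes 2.44% were called higher. Of Slco, 2 of 3 members were called, of Slc16 2 of 8, of Slc9 2 of 8, of Slc20 1 of 2, of Slc22 1 of 5, of Slc38 1 of 7, of Slc4 1 of 8 and of Slc7 1 of 10. Over all tested genes, both GDF9 libraries exceeded both vehicle libraries for 22.0% and fell below both for 23.2%. The largest family, Slc25, had 6 above and 5 below among 37, and the Slc30 zinc carriers had 2 and 3 of 7. Of families chosen here after their values were seen, Slc7 had 6 above and 0 below among 10, and Slc31 and Slc45, with 2 members each, had 0 above and 2 below.

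Levels can be compared between genes only per length. Per kb of exon, *Slc6a6* was highest with 6019 normalized counts per kb, followed by the mitochondrial carriers *Slc25a3* (3067), *Slc25a5* (2267), *Slc25a4* (2236) and *Slc25a30* (1577) and by *Slc12a7* (1319) and *Slc7a8* (1031). *Slc25a5* and *Slc25a4* changed place between the treatments, as *Slc25a4* had the higher level with GDF9 only. That pair does not differ beyond the spread of the libraries. The median over the 210 members was 90.4 normalized counts per kb, and the top 10 held 43.2% of their summed level. Mitochondrial carriers made up 32.4% of this sum, amino acid carriers 25.4%, ion carriers 19.9% and organic anion carriers 4.30%. By library, the share of the amino acid group was 26.5% and 25.7% after GDF9 against 24.7% and 24.6% after vehicle, and the mitochondrial group 31.4% and 32.1% against 32.8% and 33.3%. Because these shares are parts of 1 sum, the level of *Slc6a6* bears on all of them, and *Slc6a6* alone made up 13.4% and 12.9% with GDF9 and 12.2% and 12.03% with vehicle. With *Slc6a6* left out, the amino acid group held 15.1% and 14.8% against 14.3% and 14.2%, and the mitochondrial group 36.3% and 36.8% against 37.4% and 37.8%. Among the called members, *Slc16a11* (478) and *Slc16a13* (393) followed *Slc7a8* in level per kb, and *Slco1a1* (12.9) and *Slc9a5* (16.7) were the lowest. All 210 members together held 1.66% of the normalized counts.

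**Figure D3:**
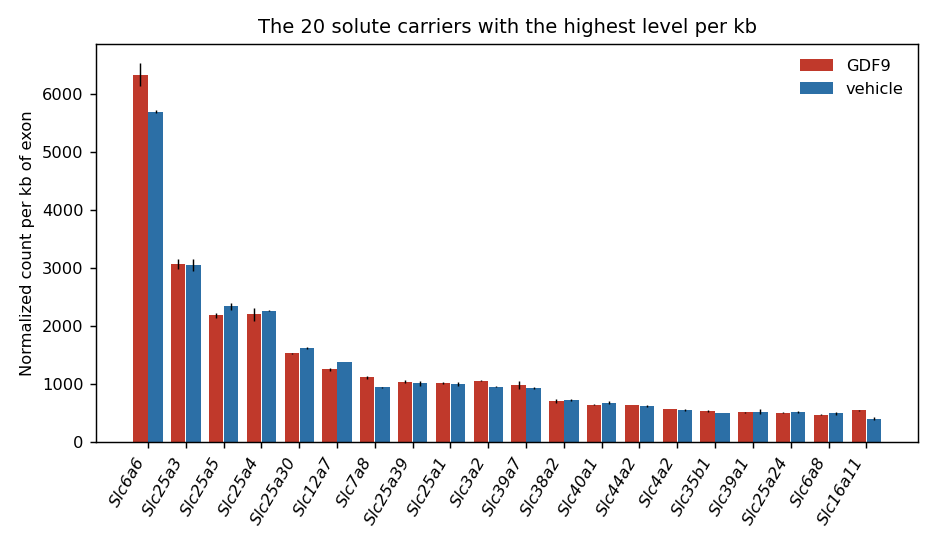
Normalized counts per kb of RefSeq exon (y axis, from 0) of the 20 members with the highest level, as means with SD of 2 GDF9 libraries (red) and 2 vehicle libraries (blue). The means over the 4 libraries run from 6019 for *Slc6a6* and 3067 for *Slc25a3* down to 478 for *Slc16a11*.

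Other transport genes were examined in lists compiled for comparison, beside 2.44% called higher and 0.707% called lower by limma over all tested genes. Of 38 tested relatives of the solute carriers under other symbols, *Nipal1*, the gene of a magnesium carrier relative, was called higher (log2 fold change 0.38) and *Nipa2* lower (-0.30). Of 16 carrier partner proteins, 14 ion pumps and 31 ABC transporters, 0 were called in limma in either direction, with medians of -0.04, -0.03 and 0.02. Over these 61 genes 12 had an unadjusted p under 0.05, and edgeR and DESeq2 called 0. Of 22 genes of the amino acid response, by which cells raise carriers when amino acids run short, 1 was called: the stress gene *Nupr1* with 4316 and 4512 normalized counts against 3258 and 3350 (log2 fold change 0.42).

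The promoters of the members were then examined for H3K27ac, a mark of active promoters and enhancers, and for SMAD binding. A promoter was taken as 3 kb on either side of a RefSeq start site, and a region as the merged span of SEACR peaks that overlap between both replicates. In Smad3PA/PA cells 63.3% of the 210 member promoters met an H3K27ac region with GDF9 and 66.2% with vehicle, beside 69.3% and 69.4% over all tested genes with a start site. In Smad2HA/+ cells the shares were 76.2% and 75.2%, beside 80.6% and 78.6%. Of the 119 symbols with reads but a low mean, 6.72% had a region in Smad3PA/PA cells under either treatment, and in Smad2HA/+ cells 21.8% with GDF9 and 25.2% with vehicle. Of the 66 without reads 0 had one in Smad3PA/PA cells and 2 in Smad2HA/+ cells under either treatment. The 123 members with a region under both treatments in Smad3PA/PA cells had a median of 515 normalized counts, and the 61 with a region under neither had 147. The highest shares among groups of carriers were those of the nucleotide sugar (86.4% with vehicle) and mitochondrial (78.9%) carriers, and the lowest that of the sugar carriers (38.5%).

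For the SMAD proteins the member shares lay near those of all tested genes. In Smad3PA/PA cells 10.0% of the members had a SMAD2 region with GDF9 (21 of 210) and 0.476% with vehicle (1 of 210), beside 11.1% and 0.806% of all tested genes. A region needs peaks in both replicates, and the list of vehicle replicate 2 holds 23082 peaks against 78699 to 81283 in the other 3. The part of this short list in the difference was not tested. By single lists, 64 and 59 members had a SMAD2 peak with GDF9, 62 in vehicle replicate 1 and 9 in vehicle replicate 2. SMAD4 regions met 14.3% of the members with GDF9 and 10.0% with vehicle, beside 14.7% and 11% of all tested genes. The PA tag on SMAD3 gave a region at 1 member with GDF9 (*Slc48a1*) and at 3 with vehicle (*Slc35f6*, *Slc35g1* and *Slc35g2*), all chosen here after their values were seen. In Smad2HA/+ cells many more promoters met a region: SMAD2 at 54.3% and 66.7% of the members, the HA tag at 67.1% and 72.9% and SMAD3 at 66.2% and 78.6%, with GDF9 and vehicle. Over all tested genes these shares were 58.1% and 69.6%, 70.9% and 78.8%, and 74.7% and 82.5%. In each of these pairs the vehicle share was the higher, for members and for all tested genes.

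**Figure D4:**
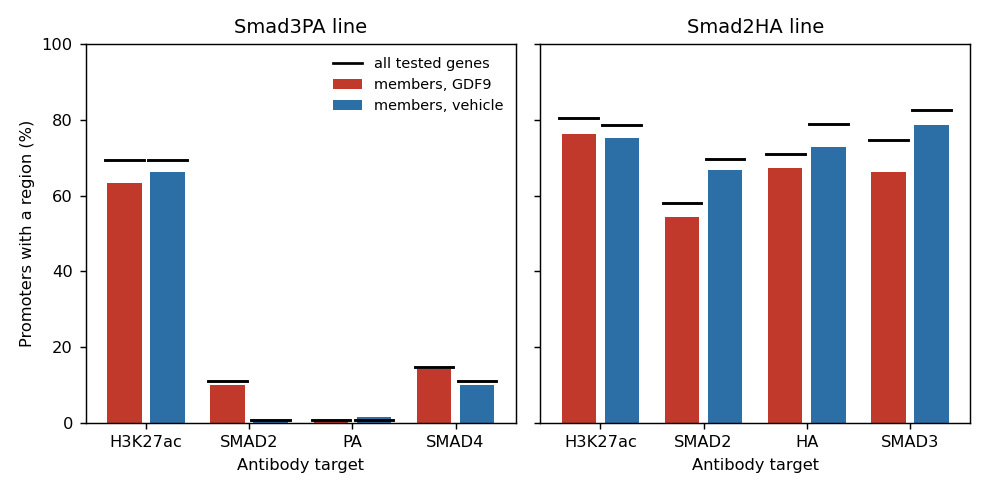
Share of promoters (y axis, percent) that met a region present in both replicates, for the 210 members (red, GDF9; blue, vehicle) and for all tested genes (black lines), by antibody target in the Smad3PA line (left) and the Smad2HA line (right). Every bar but that of PA with vehicle lies below its line, and the bars run from 0.476% for SMAD2 with vehicle in the Smad3PA line to 78.6% for SMAD3 with vehicle in the Smad2HA line.

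Among the 11 called members, *Slc20a1* was the only one with a SMAD2 region in the Smad3PA/PA cells in which the RNA was measured. The region lay at chr2:129197135-129198989 (GRCm38) over the start site, with GDF9 and not with vehicle. As a region needs peaks in both replicates, its absence with vehicle may rest on the short list of vehicle replicate 2 (23082 peaks). Only 1 of the 210 members had a SMAD2 region with vehicle there. Of the other 20 members with a SMAD2 region with GDF9 in these cells, 0 were called, beside 3.14% of all tested genes. At that share 20 members are too few for the lack of a call to be read as a result. *Slc38a9* had a SMAD4 region with GDF9 (chr13:112660133-112660987), and *Slco3a1* had one with vehicle (chr7:74554859-74556236). *Slco1a1* and *Slc22a17* had no region of any antibody in either line. *Slc4a3* had H3K27ac in the Smad2HA line and an HA region with vehicle there, and none in the Smad3PA line. The remaining 8 called members had H3K27ac and SMAD3 regions in the Smad2HA line, 7 of them also H3K27ac in the Smad3PA line with GDF9.

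SMAD3 and SMAD4 bind the short core CAGAC, which reads GTCTG on the other strand. The core was looked for on both strands in the RefSeq promoters, which run from 250 bases before to 50 after a start site on GRCm38.p6. Of 32851 such promoters 49.6% held it, and of 12817 promoters of tested genes 47.3%. Of 212 promoters of 158 members 50.5% held it, and of 10 promoters of 9 called members 4. These 4 belong to *Slc20a1*, *Slc38a9* and *Slc22a17*. The instance nearest the start site in each is shown here with up to 12 bases on either side, 5′ to 3′ on the strand of the gene and with the core in capitals, since the first and the third also lie within the regions named above.
Slc20a1 (chr2:129198538-129198566, plus strand): gcgtggccagcgCAGACaggataacccgg
Slc20a1, second start site (chr2:129207077-129207105, plus strand): ctagtgtgaggtGTCTGagccagtaggtg
Slc38a9 (chr13:112660798-112660815, plus strand): gccaactgagagGTCTGt
Slc22a17 (chr14:54913126-54913154, minus strand): aaggggaggagaGTCTGgaggaaggggag
The first lies within the SMAD2 region of GDF9-treated Smad3PA/PA cells and the third within the SMAD4 region, while the last stands at a promoter with no region in any list. Both regions span the whole promoter searched, so a core found anywhere in it would lie within them.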

How the data were processed

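RNA of 4 granulosa cell libraries (2 GDF9, 2 vehicle) was sequenced, and 40 CUT&RUN samples were made, of which 32 have peak lists. The IgG samples were not used here. The authors aligned the stranded, poly-A-enriched RNA-seq reads to mm10 (STAR 2.7.11b), and read counts per gene came from featureCounts 2.1.1, for which no source used here gives the annotation or strand setting. The deposited signal values are normalized counts, made by the authors with DESeq2 1.48.2 by dividing each library by 1 size factor. Division by the value of 1 read gave whole reads for 100% of the values (tolerance 0.05). Of 27179 entries, 1314 without values (0.311% of the summed means) and 3 unnamed columns were not used. The peak lists, called by the authors per replicate with SEACR after Bowtie2 alignment and E. coli spike-in scaling, hold the total and maximum signal of each peak as coverage. The read depth behind a peak is unknown.

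Genes with a mean of at least 10 were tested with limma 3.58.1 (R 4.3.3), using a trended empirical Bayes fit with no covariate on log2(value + 1), with p-values adjusted by Benjamini-Hochberg over all 12596 tested genes. edgeR 4.0.16 (quasi-likelihood) and DESeq2 1.42.0 were run on the recovered reads as alternatives. RefSeq GRCm38.p6 gave exon lengths and start sites by gene ID for all 210 members, and start sites for 12525 tested genes. Peaks were compared with bedtools 2.31.1, with an overlap of at least 1 bp. Levels per kb are the mean divided by the exon bases of the gene.

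The members and the lists were chosen with earlier results of these data known. The genes named are all called members, in each group the 2 with the highest mean and the largest uncalled change among means of at least 50, those nearest the limit of 20, and genes with a known role in ovarian nutrient supply. In all, 52 alternatives were planned, and 1 more, DESeq2 without independent filtering, was added after seeing the data. The values of some genes of the family, also where this rule names them, are not reported here.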

Additional observations from a re-analysis of the deposited data

Results flagged for a closer look

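H3K27ac peaks at the promoters of the 210 members went in opposite directions in the 2 lines when single lists were counted. In the Smad2HA line 160 and 159 members had a peak with GDF9 and 155 and 156 with vehicle, so both GDF9 lists lay above both vehicle lists. Over all tested genes the shares there were also apart, at 81.0% and 80.4% with GDF9 against 79.4% and 77.9% with vehicle. In the Smad3PA line 146 and 139 members had one with GDF9 and 148 and 149 with vehicle, so both GDF9 lists lay below, while over all tested genes the shares overlapped, at 74.2% and 73.0% against 73.7% and 74.2%. The difference between the lines was not tested. The GDF9 lists held more peaks in the whole genome than the vehicle lists in the Smad2HA line (13314 and 12099 against 10414 and 9754) and fewer in the Smad3PA line (27754 and 27587 against 29381 and 29241), and the part of this in the member counts was not tested.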

How the results depend on the processing

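With 2 libraries a group and 1 time point, genes of low count have wide intervals: the median half-width of the 95% interval on the log2 scale was 0.47 for uncalled members with a mean under 100 and 0.095 for those over 1000. The count of called members stayed at 11 with a pseudocount of 0.5 or 5, with a mean of at least 50, with TMM scaling, with the median log2 fold change set to 0 and with edgeR, and the 11 genes were the same except with edgeR, where *Slc35e4* replaced *Slc9a8*. For the changes below, unless stated, the cause was not tested. Without a filter on low values 187 genes and 7 members were called, among them 1 amino acid carrier and 0 of other substrates, with 18183 genes tested instead of 12596. DESeq2 on the recovered reads called 133 genes and 4 members (1 amino acid, 1 ion, 2 organic anion and 0 other carriers), and without independent filtering 136 genes and 4 members, with the same numbers in these groups. Without the fold limit 4 amino acid carriers were called, and edgeR called 1 nucleotide sugar carrier. Whether the replicate numbers pair samples of the 2 treatments is not stated. Deviations from the group means had a correlation of 0.005 over the 2 pairs, which cannot decide this with 2 libraries a group. With the replicate number as a block 535 genes and 15 members were called, 14 higher and 1 lower, all 11 among them, and 1 each of the mitochondrial, nucleotide sugar and non-carrier groups. Leaving out 1 library, where the lone library of a group is assumed to vary like the other group, gave 215 to 583 called genes and 8 to 14 called members, with 1 to 3 amino acid, 2 to 7 ion, 0 to 1 mitochondrial and 0 to 1 other carriers. Without GDF9 replicate 1 there were 7 members higher and 1 lower, without GDF9 replicate 2 there were 12 and 2, and without either vehicle library 9 and 0. Genes near 0 changed sign among these fits, with log2 fold changes from -0.082 to 0.014 for *Slc38a2*, -0.031 to 0.13 for *Slc35a4*, -0.0084 to 0.19 for *Slc6a9*, -0.21 to 0.0062 for *Slc35b4*, -0.029 to 0.040 for *Slc25a3*, -0.16 to 0.062 for *Slc16a1*, -0.083 to 0.27 for *Slc2a9*, -0.10 to 0.0068 for *Slc25a4*, -0.078 to 0.34 for *Slc16a3*, -0.11 to 0.049 for *Slc37a3*, -0.0029 to 0.071 for *Slc1a5* and -0.085 to 0.12 for *Slco2a1*.

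Promoters of 1 kb on either side lie within those of 3 kb, so a member share could only stay or fall. H3K27ac then met 61.4% of member promoters with GDF9 and 63.8% with vehicle in the Smad3PA line and 75.7% and 74.3% in the Smad2HA line. In the Smad3PA line SMAD2 met 10.0% and 0.476%, SMAD4 12.9% and 7.62%, and PA 0.476% and 0.476%. In the Smad2HA line SMAD2 met 52.9% and 65.2%, HA 65.2% and 71.4%, and SMAD3 65.7% and 77.1%. With only the 50% of peaks of highest maximum signal, H3K27ac met 40.5% of member promoters with GDF9 and 41% with vehicle in the Smad3PA line and 58.1% and 53.3% in the Smad2HA line, HA met 57.1% with GDF9, SMAD3 71% with vehicle and PA 0% with GDF9. With at least 50% of both peaks shared, H3K27ac met 55.2% and 57.6% in the Smad3PA line and 65.7% with vehicle in the Smad2HA line. In the Smad2HA line the shares with GDF9 and vehicle were then 48.6% and 58.6% for HA, 36.2% and 55.2% for SMAD2 and 50.5% and 66.2% for SMAD3, and in the Smad3PA line 8.10% and 5.24% for SMAD4 and 0% and 0% for PA, with 0% for SMAD2 with vehicle. Single lists gave higher member shares than regions in both replicates, except for H3K27ac in the Smad2HA line, where they lay from 75.7% to 76.2% with GDF9 and 73.8% to 74.3% with vehicle, beside 76.2% and 75.2% by regions. For the other antibodies of the Smad2HA line they lay from 72.4% to 82.9% with GDF9 and 81% to 81.9% with vehicle for HA, 68.1% to 69% and 72.9% to 78.6% for SMAD2, and 72.9% to 76.7% and 83.3% to 84.8% for SMAD3. In the Smad3PA line they lay from 4.76% to 7.14% with GDF9 and 8.57% to 20% with vehicle for PA, 28.1% to 30.5% and 4.29% to 29.5% for SMAD2, and 37.6% to 45.2% and 30.5% to 35.2% for SMAD4.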
